A study of Drosophila melanogaster with 54 samples.

Results

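The share of each maternal mRNA that sedimented with large ribosomal subunits and single ribosomes, the 60S+80S fraction of a sucrose gradient, was compared between mature oocytes and activated eggs of Drosophila melanogaster. The 4 samples were the 60S+80S fractions of 2 oocyte gradients and 2 egg gradients, out of 54 samples in the series. A gene's share was its 60S+80S amount divided by its summed amount in all 6 fractions of the same gradient, and 5374 of the 6572 genes listed in any gradient had a value in all 4. Both stages came from strain OregonR. Oocytes were stage 14 oocytes picked by hand after ovaries of fattened females, 4 days old, had been taken apart with collagenase. Eggs were collected within 2 h of laying from virgin females kept with spermless twine (HB5) males and were dechorionated in bleach, so they had been activated without fertilisation. Lysates of both stages contained cycloheximide, which stalls ribosomes on mRNA. The other fractions held free RNPs (RNA-protein particles), 40S subunits and polysomes of 3 sizes, named low with 2 to 4 ribosomes, medium with 5 to 9 and heavy with at least 10. A further lysate of each stage was treated with 2 mM puromycin, an inhibitor that makes ribosomes drop their growing chains, in other buffers and without cycloheximide, and run on 1 gradient. Those gradients are given for comparison only.

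A ribosome is assembled on an mRNA when a 40S subunit that has found the start codon is joined by a 60S subunit, and the result is an 80S ribosome. An mRNA that carries a single ribosome sediments as a monosome at 80S, while an mRNA on which new ribosomes start before the first has finished sediments as a polysome. At egg activation the Drosophila oocyte completes meiosis and changes which of its stored mRNAs are translated, without new transcription. The 60S+80S fraction therefore lies between mRNA without a complete ribosome and mRNA loaded with many, and a gene can enter or leave it from either side. In this fraction a monosome and an mRNA-protein particle of the same size cannot be told apart.

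Between 5605 and 6297 genes were listed per gradient, and every listed gene had at least 4 RPKM (reads scaled by gene length and library size, as normalized by the authors) in heavy polysomes. mRNAs that were missing from heavy polysomes in any of the 4 gradients were therefore not tested. There were 642 genes listed in both oocyte gradients but not in both egg gradients, with median 60S+80S shares of 21.9% and 28.3% in oocytes. Another 113 were listed in both egg gradients alone, with medians of 16% and 13.5%. All 8 germline markers examined, among them osk, nos and vas, were above 1 RPKM in every unfractionated lysate. The 11 listed follicle cell markers, which encode eggshell proteins of the cells around the oocyte, summed to 28412 and 23280 RPKM in the oocyte lysates and to 0.25 and 0.51 RPKM in the egg lysates, where 10 and 7 of them were at 0. In such bulk lysates fewer cells of a type and less RNA per cell cannot be told apart. None of the follicle cell or yolk markers was among the genes tested. Of 6 listed markers of other somatic tissue, such as the muscle myosin gene Mhc, none reached 1 RPKM in any lysate. A longer list of somatic genes had 2 members among the genes tested, ppl and Tm1. Tm1, which is expressed in many tissues and fell, had 65.6 and 63.9 RPKM in the oocyte lysates and 28.3 and 60.3 RPKM in the egg lysates, and ppl was not called (-1.46). Read depth is unknown, since no counts were used.

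The 60S+80S fraction held a smaller part of all mRNA in eggs than in oocytes, but the 2 stages overlapped. Over the 5374 genes it held 19.4% and 24.8% of the summed RPKM in the oocyte gradients and 14.8% and 19.7% in the egg gradients. The means were 22.1% ± 3.81 (SD, n = 2) and 17.3% ± 3.51 (SD, n = 2). Egg replicate 2 thus lay above oocyte replicate 1, and the difference of -4.87 percentage points was close to the spread between replicates. With 2 gradients a stage the smallest two-sided p of an exact permutation test is 0.333, so no test was made. Free RNPs went from 17.5% ± 1.77 to 31.0% ± 1.73 and 40S subunits from 8.56% ± 3.18 to 15.5% ± 0.173 (SD, n = 2). Low polysomes went from 20.8% ± 0.493 to 13.5% ± 3.39, medium polysomes from 14.5% ± 2.05 to 12.9% ± 1.63 and heavy polysomes from 16.5% ± 0.846 to 9.85% ± 0.395 (SD, n = 2). After puromycin the 60S+80S fraction held 46.3% in oocytes and 40.8% in eggs, the largest part of both gradients.

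**Figure D1:**
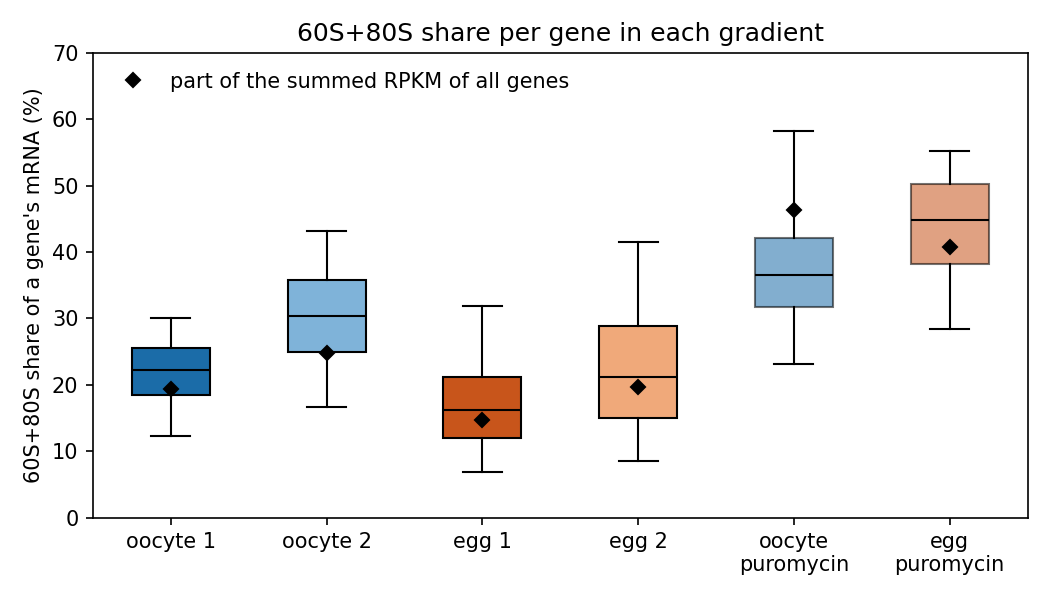
60S+80S share (percent of a gene's summed RPKM over the 6 fractions, y axis) in each of the 4 gradients and, beside them, in the 2 puromycin gradients. Boxes span the quartiles over genes, the line is the median, whiskers reach the 5th and 95th percentile, and the diamond is the part of the summed RPKM of all genes. The medians are 22.3% and 30.4% in oocytes and 16.2% and 21.2% in eggs, and the boxes of oocyte 1 and egg 2 overlap.

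Single genes spread more widely over shares in eggs than in oocytes. The median gene had 22.3% and 30.4% of its mRNA in the 60S+80S fraction in oocytes, and 16.2% and 21.2% in eggs. On the log2 odds scale, where the 60S+80S amount is set against the other 5 fractions together, oocyte gradients had an SD over genes of 0.51 and 0.60 and egg gradients one of 0.78 and 0.88. The order of genes was shared between replicates far more than between stages. Across the 5374 genes, which are not independent replicates, the Spearman correlation of shares was 0.77 between the oocyte gradients and 0.83 between the egg gradients, and between 0.08 and 0.31 over the 4 pairs of an oocyte with an egg gradient. Replicate 2 lay above replicate 1 in both stages, by a median log2 odds of 0.65 in oocytes and 0.48 in eggs.

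At activation 95 mRNAs rose in 60S+80S share and 618 fell. The test was limma on the log2 odds, two-sided, with Benjamini-Hochberg adjustment over the 5374 genes and a threshold of 0.05, and "rose" or "fell" below means past that threshold. The genes that rose were 1.77% of those tested and the genes that fell 11.5%, together 713 genes (13.3%), with a median change of -0.59 over all genes. For 93 of the 95 and for all 618 the 2 gradients of a stage did not overlap those of the other stage. Over all genes tested 445 (8.28%) stood apart in this way with eggs higher and 2724 (50.7%) with eggs lower.

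The balance of rises and falls depended on the scaling, while the called genes largely did not. When every fraction was set to its own total, the median change was -0.24, and 594 genes (11.1%) rose and 1526 (28.4%) fell. With each gradient centred on its median gene the median change was 0.03, and 1018 (18.9%) rose and 847 (15.8%) fell. Set against low, medium and heavy polysomes only, leaving out RNPs and 40S, the median was 0.05, with 1146 rises (21.3%) and 962 falls (17.9%). Of the 95 rises 93, 93 and 95 were called higher under these settings, and of the 618 falls 612, 591 and 607 were called lower. Centring moved every log2 odds change up by the same amount, which favours keeping rises. The number of calls rested on single gradients. It was 900 without oocyte replicate 1, 145 without oocyte replicate 2, 20 without egg replicate 1 and 0 without egg replicate 2, where limma gave 607 genes an unadjusted p under 0.05. With 1 gradient left out its stage holds a single gradient, which is assumed to vary like the other stage, so these fits say little about stability. That limit holds also for the calls of named genes with 1 gradient left out, given below. With gradients centred, at least 91 of the 95 rises were called whichever gradient was left out, but of the 618 falls 321, 138, 602 and 542 were, in the same order.

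**Figure D2:**
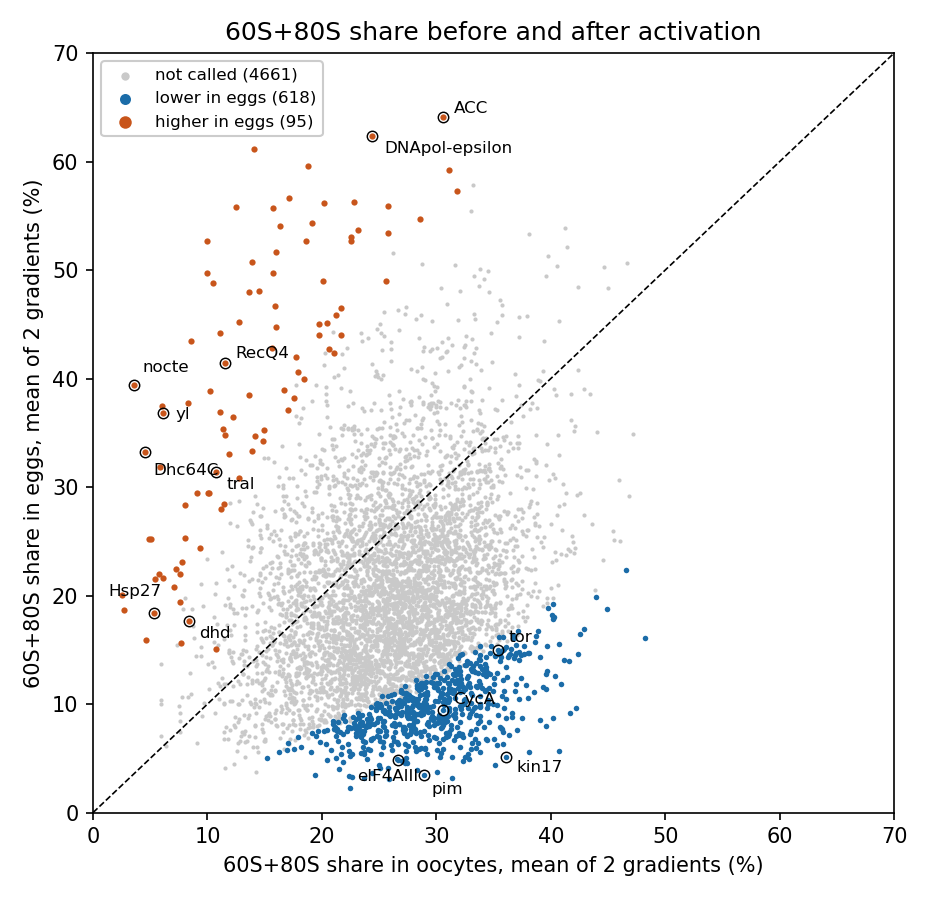
60S+80S share of each of the 5374 genes, mean of the 2 oocyte gradients (percent, x axis) against mean of the 2 egg gradients (percent, y axis). The dashed line marks equal shares, orange points the 95 genes that rose and blue points the 618 that fell; circled genes are named in the text. The genes that rose lie above the line, with a median of 13.6% in oocytes and 40.0% in eggs, and most of the cloud lies below it.

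The 10 largest rises started from oocyte shares of 2.53% to 15.4%. nocte, listed as CG17255 and known for its part in setting the circadian clock to temperature, had 2.53% and 4.67% of its mRNA there in oocytes and 35.6% and 43.2% in eggs. It changed by 3.97 ± 0.54 SE in log2 odds (limma adjusted p = 1.01e-09), the largest rise. Dhc64C, the heavy chain of the dynein motor that carries cargo along microtubules, had 2.81% and 6.28% in oocytes and 35.4% and 31.0% in eggs. Its change was 3.19 ± 0.52 SE (limma adjusted p = 1.54e-06). yl, the receptor through which the oocyte takes up yolk protein, had 5.09% and 7.19% in oocytes and 25.4% and 48.2% in eggs. In yl the 2 egg gradients lay far apart, though both were above either oocyte gradient, and the change was 3.12 ± 0.58 SE (limma adjusted p = 1.68e-05).

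The other 7 of the 10 largest rises encode large proteins of varied function. CG34401 (now Dora, an adaptor of a ubiquitin ligase) went from 13.2% and 14.8% to 59.3% and 63.0%. CG3585 (Rbcn-3A, which regulates the vacuolar proton pump) went from 9.34% and 10.6% to 49.0% and 56.4%. CG3173 (IntS1, a subunit of the Integrator complex that processes small nuclear RNAs) went from 9.62% and 15.4% to 49.0% and 62.7%. In these 3 the 60S+80S fraction was the largest of the gradient in eggs, by the mean of the egg gradients. The same held for the rest of the 10 largest rises except Dhc64C, where low polysomes held 37.3% and 60S+80S 33.2%. In CG11122 the 2 fractions were close, at 36.7% and 37.4%. The Mediator subunit gene kto had 7.33% and 12.6% in oocytes and 48.6% and 50.9% in eggs. rictor, a subunit of the TORC2 kinase complex, had 7.25% and 9.94%, then 40.9% and 46.0%. The scaffold protein gene Prosap had 9.73% and 11.3%, then 48.7% and 48.9%. CG11122 went from 4.65% and 7.35% to 34.7% and 40.1%. No egg gradient overlapped an oocyte gradient in any of the 10 genes. Their log2 odds changes ran from 2.92 to 3.97, and their proteins from 1871 to 4661 residues.

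These 10 rises stayed past the threshold when either oocyte gradient was left out. Without egg replicate 1 the limma test no longer called rictor and Prosap, and over the 10 genes the log2 odds were 2.92 to 4.19 and the adjusted p up to 0.0747. Without egg replicate 2 it called none of them, with log2 odds of 2.40 to 3.74 and adjusted p of 0.0556 to 0.206.

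mRNAs that rose came mostly from heavy polysomes. Over the 95 genes the median 60S+80S share went from 13.6% to 40.0%, while the median heavy share went from 35.4% to 8.33% and the medium share from 22.6% to 10.4%. Heavy polysomes were the fraction with the largest loss in 85 of the 95, a count that was not made over all genes. The 40S share of these genes went from 0.854% to 10.8% and the RNP share from 0.300% to 2.29%, medians over the genes. Over all genes tested the median heavy share also went down, from 17.7% to 11.3%, and the medium share from 16.6% to 13.8%. The median RNP share over all of them went from 4.00% to 15.5%, so the genes that rose stayed mostly out of free particles. Genes missing from heavy polysomes in any gradient were not tested. Dhc64C shows the shift within single gradients: heavy polysomes held 45.4% and 54.5% of its mRNA in oocytes and 11.3% and 8.45% in eggs. Its low polysome share went from 19.6% and 17.5% to 31.3% and 43.3%. Messages of nocte in heavy polysomes went from 58.1% and 63.7% to 11.7% and 9.17%. As shares of a gene sum to 100% within a gradient, a loss elsewhere and a gain here are the same measurement.

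**Figure D3:**
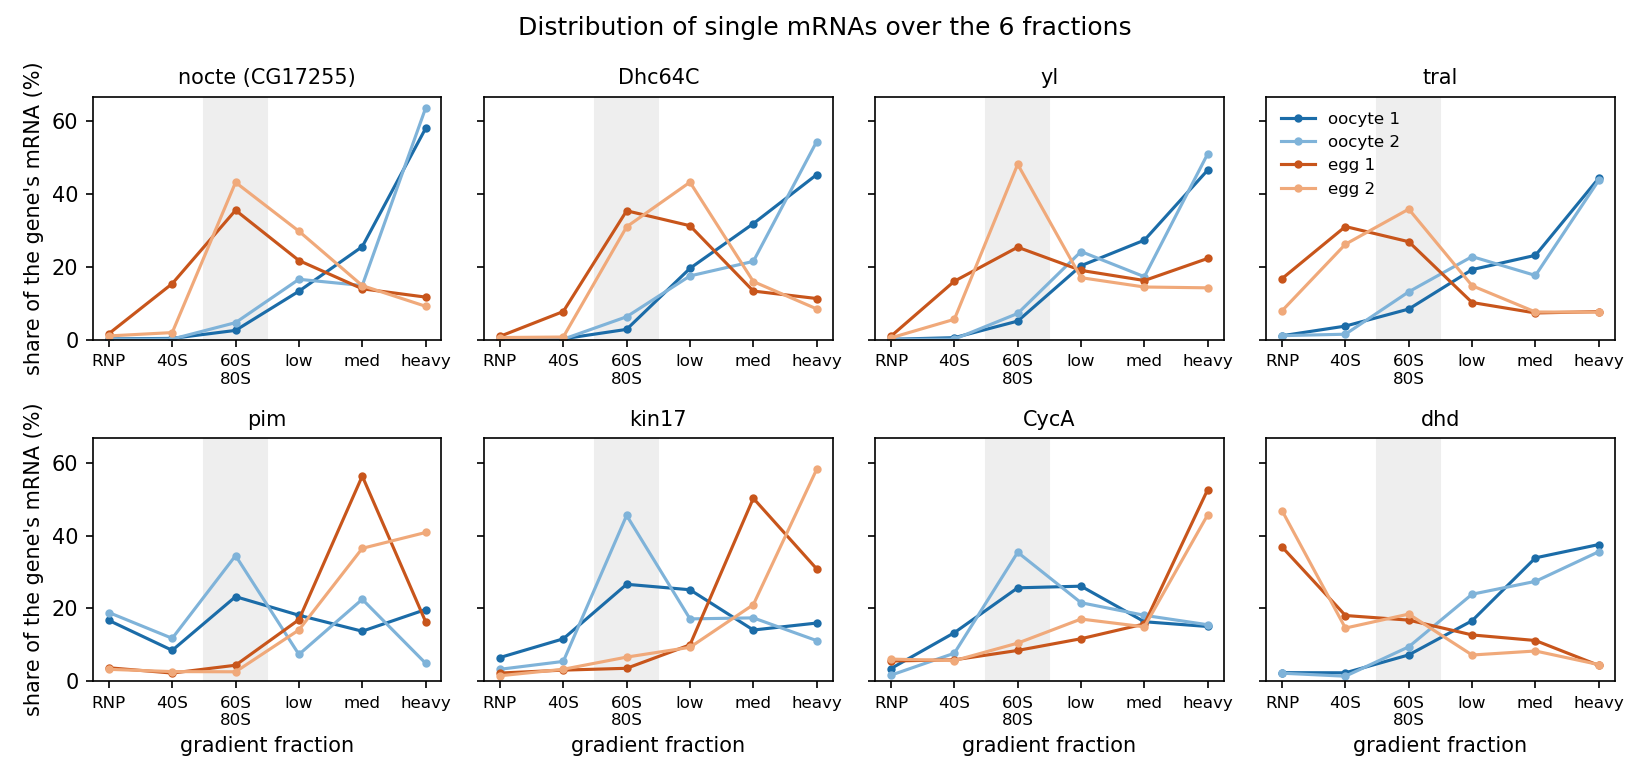
Share of a gene's mRNA (percent, y axis) in each of the 6 gradient fractions (x axis, from free RNPs to heavy polysomes) for 8 genes, 1 line per gradient, blue for oocytes and orange for eggs; the 60S+80S fraction is shaded. nocte, Dhc64C, yl and tral lose their heavy peak and gain in the shaded fraction, pim, kin17 and CycA lose in the shaded fraction and gain in medium or heavy polysomes, and dhd gains most in free RNPs.

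The largest falls were in mRNAs of small proteins. pim, the securin that keeps chromosomes from parting too early, had 23.2% and 34.5% of its mRNA in the 60S+80S fraction in oocytes and 4.39% and 2.58% in eggs. Its change was -3.47 ± 0.60 SE (limma adjusted p = 2.87e-06). kin17, a DNA- and RNA-binding protein gene, had 26.6% and 45.6% in oocytes and 3.54% and 6.62% in eggs, a change of -3.36 ± 0.57 SE (limma adjusted p = 2.26e-06). gus, whose protein binds the germline helicase Vasa, went from 28.3% and 48.0% to 6.06% and 5.03%. key, a subunit of the kinase complex of the Imd immune pathway, went from 21.7% and 30.0% to 2.85% and 3.35%. In each of these both egg gradients lay far below both oocyte gradients.

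The other 6 of the 10 largest falls were genes known by number. CG6951 had the largest, from 26.7% and 35.9% to 3.90% and 2.47%, a change of -3.63 ± 0.53 SE (limma adjusted p = 3.12e-08). CG6013, CG3448, CG8461, CG8435 and CG3817 had between 18.7% and 54.9% in oocytes and between 3.32% and 6.18% in eggs. The proteins of the 10 genes had 199 to 390 residues. All 10 stayed called without either oocyte gradient. Without egg replicate 1 limma no longer called CG6013, key, kin17, gus, CG8435 and CG3817 (log2 odds of the 10 genes -3.90 to -2.89, adjusted p up to 0.184), and without egg replicate 2 none (-3.93 to -3.11, adjusted p from 0.0557 to 0.167).

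Among the genes tested, mRNAs that fell went to larger polysomes more than to free particles. Over the 618 genes the median 60S+80S share went from 29.9% to 9.44%, the medium polysome share from 15.9% to 27.0% and the heavy share from 14.8% to 25.1%. The fraction with the largest gain was medium polysomes for 253 genes, heavy polysomes for 245, RNPs for 84 and low polysomes for 36. These counts were not made over all genes, where the median medium share went from 16.6% to 13.8% and the heavy share from 17.7% to 11.3%. So most of the 618 mRNAs that fell were found deeper in the gradient in eggs. An mRNA missing from heavy polysomes in any of the 4 gradients was not tested. Moves into free particles that emptied heavy polysomes could therefore not be counted here. For pim the medium polysome share went from 13.7% and 22.5% to 56.4% and 36.5%. Heavy polysomes held 19.7% and 4.93% of pim in oocytes and 16.4% and 40.9% in eggs, above both oocyte gradients in egg replicate 2 only. kin17 had 14.1% and 17.4% in medium polysomes of oocytes and 50.3% and 21.0% in those of eggs. Its heavy share went from 16% and 11.2% to 30.9% and 58.3%, so the egg gradients placed the gain in different polysome fractions.

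The highest shares of the fraction were held by different genes before and after activation. In eggs CG11198, which encodes the acetyl-CoA carboxylase ACC of fatty acid synthesis, led with 59.6% and 68.6%, up from 28.8% and 32.4% in oocytes (1.97 ± 0.52 SE, limma adjusted p = 0.0039). DNApol-epsilon, a replicative DNA polymerase, followed with 56.7% and 67.9%, up from 23.2% and 25.5%. CG34401, given above, CG9674 (49.3% and 69.8%, up from 15.9% and 21.7%) and the Ras-binding gene spri (48.4% and 70.1%, up from 28.7% and 33.5%) completed the 5 highest, all of which rose. In oocytes the 5 highest were CG3337, CG11148 (now Gyf), S6kII, fs(1)M3 and unc-13. CG3337 fell, from 41% and 55.5% to 17.1% and 15.1%. fs(1)M3, an eggshell protein gene, stood at 39.9% and 53.5% in oocytes and 46.6% and 54.7% in eggs (0.23, limma adjusted p = 0.807). It was called higher with gradients centred (0.85, limma adjusted p = 0.0162) and against polysomes (1.45, limma adjusted p = 0.00555). unc-13 was called lower with fractions set to their own totals (-1.21) and against polysomes (-1.11). Among the 5 leading genes of eggs, spri was not called without either oocyte gradient (1.55 and 1.87), CG11198, DNApol-epsilon and spri not without egg replicate 1 (2.25 to 2.68) and none without egg replicate 2 (1.05 to 3.08). CG3337 was not called without oocyte replicate 2, egg replicate 1 or egg replicate 2 (-1.83, -2.35 and -2.15).

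In eggs, but hardly in oocytes, the 60S+80S share went with the length of the protein encoded. Genes were put in 5 bins of protein length, of which the bin over 100 and up to 200 residues held 627 genes and the bin over 800 residues 1146. In oocyte replicate 1 the median share was 21.5% in the former and 23.8% in the latter, and in oocyte replicate 2 it was 28.1% and 32.2%. In egg replicate 1 it was 13.1% and 24.2%, and in egg replicate 2 14.7% and 31.3%. The shortest bin, up to 100 residues with 113 genes, broke the order, with 18.9% and 17.1% in the egg gradients. The bin over 800 residues stood above every shorter bin in both egg gradients, and by a few points in the oocyte gradients. Over the 5275 genes with a known length the Spearman correlation of share with length was 0.13 in both oocyte gradients and 0.47 and 0.54 in the egg gradients, and that of the change 0.41. In 3 equal groups of genes by abundance that of the change was 0.48, 0.42 and 0.30, from the least to the most abundant. These are descriptions across genes of 4 gradients, with no test.

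**Figure D4:**
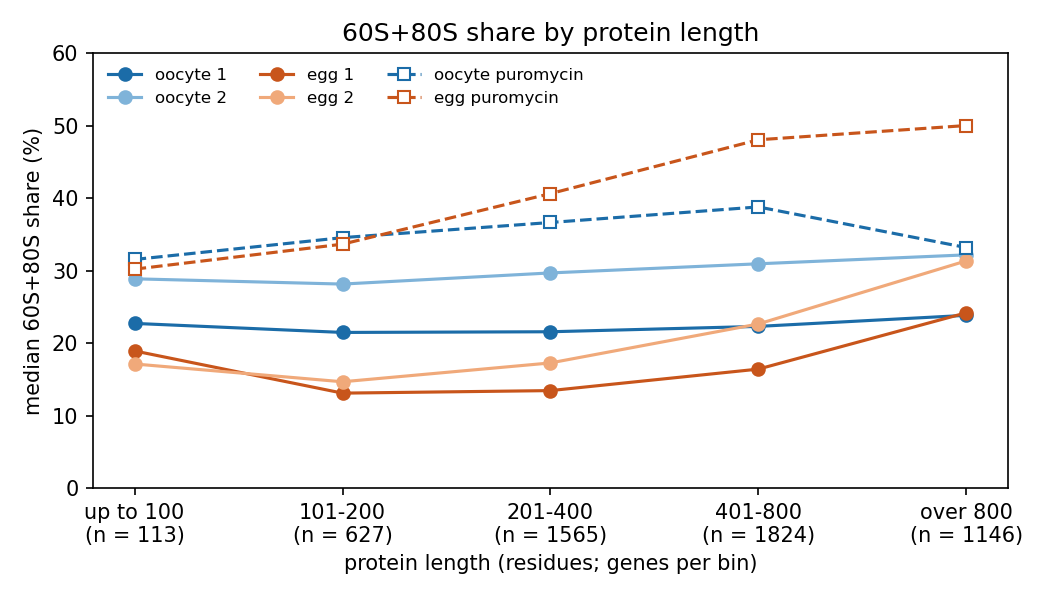
Median 60S+80S share (percent, y axis) in 5 bins of protein length (residues, x axis), 1 line per gradient, with dashed lines for the puromycin gradients. The oocyte lines are nearly flat, while both egg lines climb from the bin over 100 and up to 200 residues (13.1% and 14.7%) to the bin over 800 (24.2% and 31.3%), and the egg puromycin line climbs too. In the shortest bin both egg lines stand higher than in the next, at 18.9% and 17.1%.

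Rises were mostly in mRNAs of long proteins, though less so under other scalings, and falls mostly in those of shorter ones. Of the 94 rises with a known length 79 (84.0%) encoded over 800 residues, compared with 1146 of all 5275 genes (21.7%). The share of rises over 800 residues was 53.9% with gradients centred, 52.4% with fractions set to their own totals and 40.8% against polysomes. The median length was 2012 residues for rises, 324 for falls and 450 for all genes. Of 610 falls with a length 400 (65.6%) encoded at most 400 residues, compared with 43.7% of all, and it was 64.5%, 58.9% and 61.8% under these scalings. The bins from shortest to longest held 0, 3, 3, 9 and 79 rises and 7, 109, 284, 173 and 37 falls. Their median changes were -0.60, -0.96, -0.84, -0.53 and 0.045, and with gradients centred 0.017, -0.34, -0.22, 0.085 and 0.66. The longest bin was the highest under both, while its level depended on the scaling. Between the bins over 800 and of over 100 and up to 200 residues the medians differed by 1.00 in log2 odds, and by 0.81 to 1.17 with 1 gradient left out. Fraction totals differed as well by length: over 800 residues the median 40S share went from 6.86% to 20.3% and the RNP share from 0.668% to 6.32%, while at over 100 and up to 200 residues the RNP share went from 7.11% to 17.5% and the 40S share from 6.81% to 9.43%. Abundance was also lower in the rises, with a median sum over the fractions of 146 RPKM against 303 RPKM in the falls and 297 RPKM in all genes, and its part in the result was not tested. The length of an mRNA limits how many ribosomes it can hold, so length, ribosome number and position in the gradient cannot be told apart here.

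Over all genes the 60S+80S share went with protein length in the egg puromycin gradient and hardly in that of oocytes. In the egg puromycin gradient the median 60S+80S share went from 30.2% in the bin of the shortest proteins to 50.0% over 800 residues, and in that of oocytes from 31.5% to 33.2%, with 38.8% at over 400 and up to 800. The Spearman correlations were 0.57 in eggs and -0.094 in oocytes. In the 3 groups by abundance, from the least to the most abundant, they were 0.12, 0.60 and 0.74 in eggs and -0.32, 0.050 and 0.14 in oocytes. The 95 genes that rose had median shares of 22.9% in the oocyte and 37.3% in the egg puromycin gradient, below the 36.6% and 44.8% of all genes. Those that fell had 34.8% and 40.2%. With 1 gradient per stage these values have no replicate, and drug and buffer cannot be told apart.

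Genes for the translation machinery differed by list. None of 84 cytosolic ribosomal protein genes, the building blocks of the ribosome itself, rose or fell, with a median change of -0.43 against -0.59 over all genes; the median turned to 0.39 with fractions set to their own totals and to 0.19 with gradients centred. Beside the 1.77% of all genes that rose and the 11.5% that fell, of 71 mitochondrial ribosomal protein genes 12 fell and none rose, with a median of -1.13 that was -0.77 and -0.52 under these scalings. mRpL41 led them, from 25.2% and 30.5% to 7.83% and 7.49% (-2.18 ± 0.59 SE, limma adjusted p = 0.00454). Of 42 translation factor genes 3 fell and none rose. The largest was eIF4AIII, the helicase at the core of the exon junction complex, from 24.0% and 29.4% to 3.63% and 5.99% (-2.82 ± 0.59 SE, limma adjusted p = 0.000142). In 31 genes of splicing and the exon junction complex, eIF4AIII and kin17 among them, 6 fell and none rose, with a median of -1.16 that was -0.85 and -0.55 under the other scalings.

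Few metabolic and protein quality genes were called as first tested, beside 1.77% rises and 11.5% falls over all genes. Of 65 genes of the respiratory chain and ATP synthase 1 rose and 2 fell. The riser was blw, subunit alpha of ATP synthase, from 6.41% and 8.78% to 14.1% and 29.8% (1.70 ± 0.58 SE, limma adjusted p = 0.0336). Cyt-c-p, the cytochrome c that carries electrons, fell from 29.1% and 37.8% to 7.93% and 9.97% (-2.35 ± 0.58 SE, limma adjusted p = 0.00158). Of 31 proteasome genes 2 fell, led by Pros35 (now Prosalpha6) with 12.2% and 18.2%, then 4.39% and 5.66%. Of 24 heat shock and chaperone genes 1 rose and none fell. It was Hsp27, a small heat shock protein stored in the oocyte, with 3.91% and 6.77% in oocytes and 15.7% and 21.1% in eggs (2.03 ± 0.56 SE, limma adjusted p = 0.00627). The chaperone median of 0.08 was above that of all genes, and it was 0.57 and 0.69 with the other scalings. With fractions set to their own totals 5 respiratory genes rose and 26 fell, and 4 proteasome genes rose and 12 fell. Of the chaperones 8 then rose and 1 fell, beside 11.1% and 28.4% of all genes. With gradients centred the rises and falls were 7 and 6, 7 and 4, and 10 and 0, beside 18.9% and 15.8% of all genes.

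In the cell cycle and chromatin lists the parts that rose and fell were near the 1.77% and 11.5% of all genes, while in DNA replication as many rose as fell. In DNA replication 2 of 42 genes rose, DNApol-epsilon and the helicase gene RecQ4, and 2 fell. With fractions set to their own totals 8 of the 42 rose and 9 fell, beside 11.1% and 28.4% of all genes. With gradients centred it was 11 and 5, beside 18.9% and 15.8%, and against polysomes 17 and 4, beside 21.3% and 17.9%. RecQ4 went from 11.0% and 12.1% to 37.3% and 45.7% (2.40 ± 0.55 SE, limma adjusted p = 0.000652), and Psf2, a subunit of the GINS complex at the fork, from 24.2% and 31.3% to 8.06% and 6.41% (-2.26 ± 0.59 SE, limma adjusted p = 0.00309). Of 55 cell cycle genes 1 rose and 6 fell. The riser, shtd, is the largest scaffold subunit of the anaphase-promoting complex, the ubiquitin ligase that triggers anaphase, and went from 18.1% and 21.4% to 36.5% and 51.5%. pim, a target of that complex, fell as given above. Among 39 histone and chromatin genes 1 rose, dhd, and 4 fell. The heterochromatin protein gene HP1b led the falls, from 27.2% and 40.1% to 6.15% and 6.61% (-2.86 ± 0.61 SE, limma adjusted p = 0.000207). The median changes of these 3 lists were -0.16, -0.59 and -0.59, and with gradients centred 0.45, 0.02 and 0.03.

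RNA regulators and cytoskeletal genes had medians above that of all genes, and patterning genes, at -0.69, did not. The counts of these lists stand beside 1.77% rises and 11.5% falls over all genes tested. Of 48 post-transcriptional regulators 3 rose and 2 fell, with a median of -0.26. The largest fall was that of AGO3, a Piwi protein of the piRNA pathway, from 25.3% and 31.6% to 6.40% and 5.31% (-2.44 ± 0.53 SE, limma adjusted p = 0.000228). Of 24 cytoskeletal genes 2 rose, Dhc64C first, and 2 fell, with a median of 0.02. gammaTub23C, the gamma-tubulin that nucleates microtubules, fell from 25.6% and 35.4% to 6.01% and 11.4%, and the tropomyosin gene Tm1 from 27.0% and 37.1% to 13.3% and 12.8%. Of 36 axis and patterning genes none rose and 7 fell. The MAP kinase gene rl, which acts downstream of the receptors torso and Egfr, had the largest fall, from 26.7% and 43.4% to 7.74% and 5.87% (-2.76 ± 0.54 SE, limma adjusted p = 4.93e-05). Of 14 genes of egg activation and calcium signalling 1 fell, Cam, which encodes the calcium sensor calmodulin, from 15.9% and 37.9% to 7.70% and 10.2%.

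Calls of the genes that led these lists depended on the gradients used, in fits that leave 1 stage a single gradient and say little about stability. Of the 15 list leaders not named elsewhere 11 stayed called without oocyte replicate 1, and Pros35, blw, shtd and Hsp27 did not (log2 odds of the 15 genes -3.29 to 2.32). Only eIF4AIII, RecQ4, AGO3 and rl stayed called without oocyte replicate 2 (-2.62 to 2.48). None did without egg replicate 1 (-2.90 to 2.65) or egg replicate 2 (-3.19 to 2.15), at limma adjusted p of 0.101 to 0.71 and of 0.133 to 0.592. No direction changed.

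Among 29 regulators of egg activation and early development, 2 rose and 3 fell, beside 1.77% rises and 11.5% falls over all genes tested. tral, a partner of the repressor Cup in masked RNA particles, had 8.40% and 13.1% in oocytes and 26.9% and 35.9% in eggs, a change of 1.94 ± 0.60 SE (limma adjusted p = 0.0169). Its 40S share also went up, from 3.72% and 1.48% to 31.1% and 26.2%, while its heavy share went from 44.4% and 43.8% to 7.70% and 7.55%. dhd, the thioredoxin that helps to unpack sperm chromatin, had 7.23% and 9.45% in oocytes and 16.8% and 18.4% in eggs (1.24 ± 0.46 SE, limma adjusted p = 0.0494). The RNP share of dhd grew more, from 2.34% and 2.20% to 36.9% and 46.9%. The mitotic cyclin gene CycA fell from 25.7% and 35.4% to 8.45% and 10.5% (-2.06 ± 0.60 SE, limma adjusted p = 0.0105). CycA messages were then found in heavy polysomes, which held 15.0% and 15.5% in oocytes and 52.7% and 45.8% in eggs.

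Receptors of both maternal signalling systems for the body axes fell. tor, the receptor tyrosine kinase for the ends of the embryo, had 28.0% and 42.8% in oocytes and 12% and 17.9% in eggs (-1.61 ± 0.55 SE, limma adjusted p = 0.0323). Tl, the receptor of the dorsoventral axis, had 36.6% and 43.7%, then 18.0% and 20.4% (-1.46 ± 0.53 SE, limma adjusted p = 0.0458). In both genes the egg gradients lay below the oocyte gradients. Without oocyte replicate 2 or either egg gradient none of CycA, tor, Tl, tral and dhd was called (limma adjusted p 0.126 to 0.741), and without oocyte replicate 1 tral (1.58) and dhd (1.03) were not. Tl was also not called with a pseudocount of 5 (-1.31), and dhd, near the threshold, was lost with a filter at 50 RPKM, without the trend, with all 6 gradients and with a pseudocount of 5 (1.24 each time).

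The other 24 regulators did not pass the test. Over all 29, the gradients of the 2 stages stood apart with eggs higher in 9 and with eggs lower in 15, beside 8.28% and 50.7% of all genes tested. wisp, the cytoplasmic poly(A) polymerase gene, had 26.5% and 31.1% in oocytes and 45.6% and 55.5% in eggs (1.34 ± 0.61 SE, limma adjusted p = 0.129). cup, a translational repressor, had 14.9% and 24.0%, then 36.2% and 42.7% (1.46, limma adjusted p = 0.0874). sra, the calcipressin gene that calcium signalling needs in activation, had 30.3% and 41.2%, then 17.2% and 15.9% (-1.44, limma adjusted p = 0.0551). In these 3 the stages did not overlap. Under each of the other 3 scalings wisp, cup, cort, hb and pum were called higher and sra lower. In only some of them fzy, smg, CycB and CG3509 were called lower, and osk, png and vfl higher.

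The subunits of the PAN GU kinase, which turns translation at activation, and several patterning genes were among those not called as tested first. png, the catalytic subunit, had 20.0% and 27.4% in oocytes and 16.3% and 32.0% in eggs (-0.02 ± 0.61 SE, limma adjusted p = 0.983), and turned to 0.51 with fractions set to their own totals, to 0.59 with gradients centred and to 1.48 against polysomes, where it was called higher (limma adjusted p = 0.0276). Its partner gnu had 18.1% and 28.9%, then 15.9% and 16.7%, and plu 17.0% and 13.6%, then 7.86% and 10.1%. smg, the repressor that brings about decay of maternal mRNA, had 27.3% and 29.9%, then 12.6% and 16% (-1.26 ± 0.60 SE, limma adjusted p = 0.151), and was called lower with fractions set to their own totals (-1.27, limma adjusted p = 0.00322). bcd, the anterior determinant, had 8.89% and 17.3% in oocytes and 9.99% and 15.6% in eggs (-0.02). osk, the germ plasm organiser, had 24.3% and 32.5%, then 34.7% and 36.2% (0.48 ± 0.61 SE, limma adjusted p = 0.631), and was called higher with gradients centred (1.10, limma adjusted p = 0.00975). The 95% intervals of these changes are wide, from -1.22 to 1.17 for png and from -0.73 to 1.68 for osk, so that shifts of this size were not detectable.

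Ribosome footprints of the same stages gave a separate readout, and on balance moved opposite to the 60S+80S share. Translational efficiency was taken as log2(footprint RPKM + 1) minus log2(RNA RPKM + 1), egg minus oocyte, with 1 library of each kind per stage, once without and once with cycloheximide. Over the 93 rises with a value the median change was -0.97 without and -0.42 with cycloheximide. Over 573 falls it was 1.26 and 1.98, and over all 5004 genes 0.30 and 0.77. Efficiency was lower in eggs in both states for 57 of the 93 rises (61.3%) and for 31.4% of all genes. It was higher in both for 483 of the 573 falls (84.3%) and for 55.6% of all genes. Across the 5004 genes the Spearman correlation of the 2 changes was -0.36 without and -0.40 with cycloheximide, a description over genes that share these libraries.

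**Figure D5:**
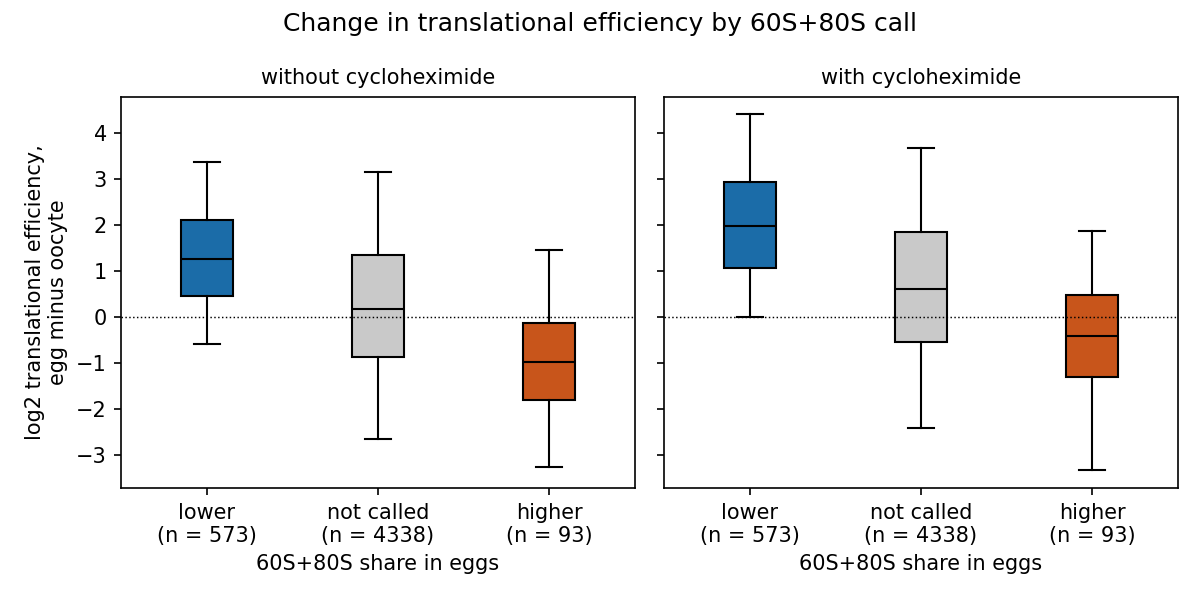
Change in log2 translational efficiency, egg minus oocyte (y axis), for genes that fell, were not called or rose in 60S+80S share (x axis), without cycloheximide (left) and with it (right). Boxes span the quartiles, the line is the median and whiskers reach the 5th and 95th percentile of genes, from 1 library pair per stage and state. The medians are 1.26, 0.16 and -0.97 on the left and 1.98, 0.61 and -0.42 on the right.

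The opposite movement was also seen within the bin of the longest proteins, though lengths within that open bin were not matched. Among proteins over 800 residues the median efficiency change was -0.74 and -0.26 for 79 rises, 2.58 and 3.56 for 35 falls, and 0.98 and 1.49 for 1003 genes not called. All 35 of those falls had higher efficiency in eggs in both states, compared with 685 of the 1003 genes not called. Efficiency was lower in both for 45 of the 79 rises and for 227 of those 1003. Of the 10 largest rises 9 had lower efficiency in both states, rictor being the exception with 0.07 and 0.56. CG3173 had the lowest, with -3.27 and -3.29. All 9 of the 10 largest falls that had a value were more efficient in eggs, gus most with 3.3 and 4.57. CycA stood at 5.32 and 6.78 and Tl at 5.47 and 6.11, while dhd was at -4.10 and -4.86 and Hsp27 at -3.91 and -4.62. For Cam, Pros35, mRpL41 and Psf2 a fall in 60S+80S share came with changes between -0.81 and 0.90.

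Median levels in the unfractionated lysates moved little beside these shifts, while single genes moved in both directions. The 95 rises had medians of 31.4 and 30.3 RPKM in the oocyte lysates, and of 27.9 and 29.1 RPKM in the egg lysates. That of the 618 falls was 44.0 and 39.7 RPKM, then 46.5 and 48.8 RPKM. Libraries were poly(A)-selected, so a change of tail length can move a gene's value, and its part in the shares was not tested. By chromosome arm 23 of 94 rises (24.5%) and 58 of 610 falls (9.51%) were X-linked, compared with 17.7% of the genes tested.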

How the data were processed

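The authors deposited normalized RPKM per gene for every part of a gradient, as the column names say. They also deposited the fraction of the gene's mRNA there, from 0 to 1, which equalled RPKM over the gene's sum within 0.00518. Per the labels' protocols, 5 ng of yeast mRNA went into each of the 14 collected fractions for some of the samples, of which the labels name oocyte replicate 1 but not replicate 2. Taken in sample order, the protocol's sample numbers fall on oocyte replicate 1 and egg replicate 1, though no label names the egg gradient. Replicate 1 of both stages would then share this step. Egg and puromycin gradients also received 5 ng of luciferase RNA. How the spikes entered the RPKM is not stated in these sources, and their part in the shares and in the offset between replicates was not tested. The submitters' processing notes name TopHat 1.3.2, Bowtie, HTSeq, FastQC and dm3 without roles. Depth per sample is unknown, as no read steps could be resolved in the 60S+80S tables, and no counting interval was computed.

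Log2 odds of 60S+80S against the other 5 fractions, with 1 RPKM added to each side, were tested with limma 3.58.1 (lmFit, eBayes with trend) in R 4.3.3, on 2 oocyte and 2 egg gradients. limma gave genes of like abundance the same spread, so its p-values take that spread as known. Nothing in the labels says that replicates came from separate animals, so p-values measure the spread between these samples. A fold on this scale understates changes of low genes. No label says that a replicate number marks a shared batch, so the samples were not paired. The offset between replicates therefore stayed in the residual spread, and a fit with a replicate block is given as an alternative.

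Named genes are the 10 largest rises and falls past the threshold with a mean sum of at least 50 RPKM and no overlap of stages, the 5 highest shares per stage, the regulators, and the largest called rise and fall of each of 17 gene lists. Members, lists and rule were chosen with earlier results of these data known, and 4 names matched by spelling alone were removed afterwards. Symbols in the tables matched gene records of Release 6 for 13870 of 14258 names (97.3%), and protein lengths, the longest coding sequence per gene in the BDGP6 annotation, were found for 5275 of the genes tested (98.2%). Footprint transcripts matched for 5784 of 5842. Lists share members. No sequences are shown. The model was also run on simulated data from which the offset between gradients was left out. The real gradients hold that offset, so that run says nothing on how reliable the calls are. Summaries used python 3.11.15, pandas 2.3.3 and numpy 2.4.6, and plots matplotlib 3.10.9. Alternatives were other scalings, denominators, pseudocounts, filters, no trend, all 6 gradients, the replicate block and each gradient left out.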

Additional observations from a re-analysis of the deposited data

How the results depend on the processing

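The direction of the median change and the balance of rises and falls depended on scaling, and numbers of calls on single gradients. Genes called were 713 (95 higher, 618 lower); with fractions set to their own totals 2120 (594 and 1526), with centred gradients 1865 (1018 and 847), against polysomes only 2108 (1146 and 962), without the trend 1185 (132 and 1053), with the replicate block 2756 (358 and 2398) and with centring and block together 2077 (1125 and 952). Pseudocounts of 0.1 and 5, a filter at 50 RPKM and all 6 gradients gave 607 to 730. The median change of -0.59 was -0.24 with fractions scaled to their own total, and turned to 0.030 with centred gradients, with or without the block, and to 0.054 against polysomes. Leaving out 1 gradient gave 0 to 900 calls (0 to 60 higher, 0 to 840 lower) and medians of -0.90 to -0.28. With centring, an alternative chosen after seeing the data, it gave 755 (430 higher, 325 lower) without oocyte replicate 1, 389 (251 and 138) without oocyte replicate 2, 2605 (1378 and 1227) without egg replicate 1 and 1917 (1018 and 899) without egg replicate 2, with medians of 0.016, 0.042, 0.034 and 0.022. The difference between length bins was 1.47 against polysomes and otherwise 0.81 to 1.17. The part of all mRNA in the fraction kept its direction over all genes listed and without follicle cell genes.

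No label says that same-numbered gradients of the 2 stages share a batch. Replicate 2 lay above replicate 1 in both stages, an offset that the replicate block takes out, while the correlation over genes of same-numbered deviations from the stage means was -0.01. Every replicate number is present in both stages, so the fit with the replicate block gives each gene the same change as the main fit. No gene could turn with it, and only the spread and the calls differ. With the block 17 named genes passed that did not pass without it. Genes near no change turned: with centred gradients CycB3 to 0.061, bcd to 0.60, brat to 0.32, cad to 0.029, me31B to 0.41, png to 0.59 and stg to 0.025; against polysomes CG11148 to 0.061, bcd to 0.16, brat to 0.027, cad to 0.049, gnu to 0.58, me31B to 1.01, nos to 0.94 and png to 1.48; with fractions scaled to their own total me31B to 0.26, nos to 0.081 and png to 0.51. Leaving out 1 gradient at a time moved fs(1)M3 between -0.16 and 0.62, bcd between -0.57 and 0.53, brat between -0.75 and 0.14, me31B between -0.57 and 0.15 and png between -0.66 and 0.61. The cause of these turns was not tested. None of these genes passed the test as reported.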
